A study of Mus musculus with 8 samples.

Results

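The 9 genes described here build and break down glycogen in liver: Gys2, Gyg, Gbe1 and Ugp2 on the side of synthesis, Pygl, Phka2 and Phkg2 on the side of breakdown, and Ppp1r3b and Ppp1r3c, which direct a phosphatase to glycogen. They were chosen by name, with earlier results of these data known. Every probe set annotated to 1 of them and to no other gene was taken. This gave 17 of the 45101 probe sets on the array and 9 of 18193 genes. Liver RNA came from 8 young male mice, each on 1 Affymetrix mouse array. The 4 control animals, 70, 71, 80 and 82, were txnrd1 cond/+ albCre0: they carried 1 conditional allele of Txnrd1, 1 normal allele and no Cre transgene. The other 4 animals, 69, 72, 73 and 81, were txnrd1 cond/- albCre1: they carried the conditional allele over a null allele, together with 1 copy of albCre, in which the albumin promoter drives Cre in hepatocytes. In those hepatocytes the conditional allele is converted to null, so these livers are called txnrd1-/- below, although their other cells keep the conditional allele. All mice of both genotypes had lived alone for 10 days and were harvested in the early afternoon. Because Cre was present only in the txnrd1-/- livers, the transgene and the loss of Txnrd1 cannot be told apart.

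Glycogen is the branched glucose polymer in which liver stores glucose after a meal and from which it releases glucose between meals. Glucose 1-phosphate is joined to UTP to give UDP-glucose. Glycogenin starts a chain from UDP-glucose, glycogen synthase lengthens it, and the branching enzyme moves pieces of the chain to new branch points. Phosphorylase removes glucose units, and phosphorylase kinase switches phosphorylase on when glucagon or adrenaline signals arrive. Protein phosphatase 1, held on the glycogen particle by targeting subunits, reverses those phosphorylations and favours synthesis. UDP-glucose is shared with other pathways, among them the one that oxidizes it to UDP-glucuronic acid for conjugation of drugs and other xenobiotics.

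The deposited values were ratios, scaled so that the middle of each array, and of each probe set across the livers, sits near 1. A ratio of 1 therefore marks the middle of the 8 livers for that probe set, and levels of different genes cannot be compared. Of 9 genes, 2 stood higher in every txnrd1-/- liver than in any control liver, Gbe1 and Ugp2, and none stood lower in that way. Such a separation was seen in 1.71% of all genes. By probe set the groups did not overlap for 6 of 17, the single Gbe1 probe set and all 5 of Ugp2, against 1.46% of all probe sets. With the thresholds of the study, taken as a limma p of at most 0.05 before adjustment together with a 1.5-fold difference, 5 probe sets (all higher) of 3 genes passed, against 0.562% of all probe sets, and the same thresholds passed 2 of 9 genes against 0.654% of all genes. With p-values adjusted by Benjamini-Hochberg over the whole array, 0 of the 17 probe sets and 0 of the 9 genes passed in limma, where 0.0266% of all probe sets and 0.0824% of all genes did. An unadjusted limma p of at most 0.05, without a fold minimum, was found for 7 of the 17 probe sets against 1.82% of all probe sets, and for 2 of the 9 genes against 2.32% of all genes. The 7 probe sets were all 5 of Ugp2, the single one of Gbe1 and 1 of Ppp1r3c, so most of that count came from 1 gene. The median log2 difference of the 9 genes was 0.08, beside 0.00 over all genes, and 6 of the 9 differences were above 0. The larger differences were those of Gbe1, Ugp2 and Ppp1r3c.

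**Figure D1:**
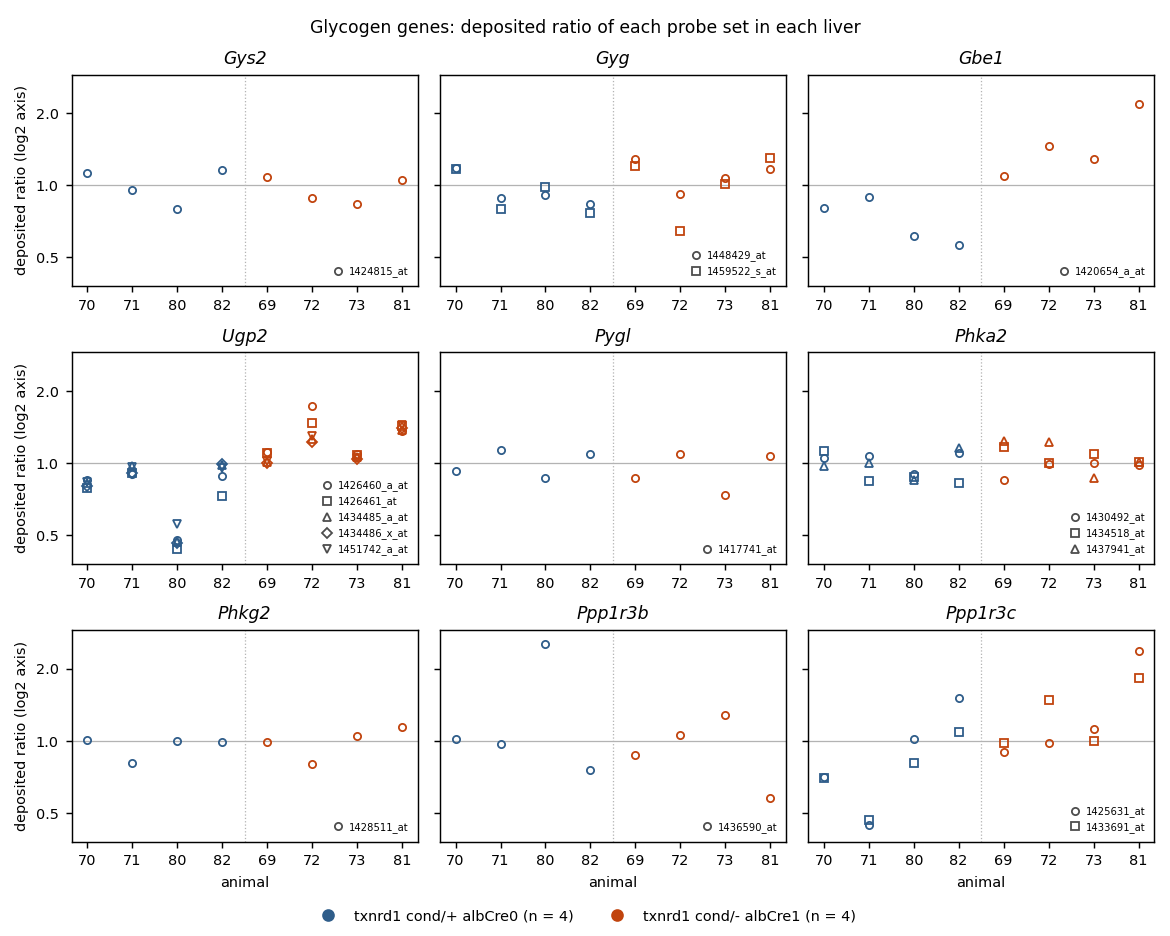
Deposited ratio (log2 axis) of every probe set of the 9 glycogen genes in each of 8 livers; blue, txnrd1 cond/+ albCre0; orange, txnrd1 cond/- albCre1; 1 marker shape per probe set, with the animal number on the horizontal axis. Gbe1 and Ugp2 lie below 1 in all 4 control livers and above 1 in all 4 txnrd1-/- livers, whereas Gys2, Pygl, Phka2 and Phkg2 are mixed.

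Upstream sequence was found in RefSeq (GRCm38.p6) for 7 of the 9 genes, with 8 start sites between them. The windows of Gbe1, of both starts of Ugp2 and of Ppp1r3c are shown because these are the genes with the largest differences, and that of Ugdh, which draws on the same UDP-glucose, is shown for comparison. Each runs for 250 bases up to the base before the annotated start, 5′ to 3′ on the strand of the gene. Capitals mark every match to TGACNNNGC, the core of the antioxidant response element, to the E-box CACGTG or to the cAMP response element TGACGTCA, searched on both strands, where N is any base.
Gbe1, chr16:70313699-70313948 (plus strand): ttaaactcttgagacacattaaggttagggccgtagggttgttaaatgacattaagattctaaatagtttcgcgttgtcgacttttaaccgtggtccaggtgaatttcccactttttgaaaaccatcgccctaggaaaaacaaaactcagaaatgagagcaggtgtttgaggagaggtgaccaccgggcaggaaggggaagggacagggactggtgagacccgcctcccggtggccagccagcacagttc
Ugp2, upstream start, chr11:21371268-21371517 (minus strand): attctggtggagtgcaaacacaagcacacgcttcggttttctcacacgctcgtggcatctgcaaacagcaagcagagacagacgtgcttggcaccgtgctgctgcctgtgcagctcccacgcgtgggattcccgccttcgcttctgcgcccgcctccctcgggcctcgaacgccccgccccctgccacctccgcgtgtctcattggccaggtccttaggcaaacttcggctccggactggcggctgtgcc
Ugp2, downstream start, chr11:21370630-21370879 (minus strand): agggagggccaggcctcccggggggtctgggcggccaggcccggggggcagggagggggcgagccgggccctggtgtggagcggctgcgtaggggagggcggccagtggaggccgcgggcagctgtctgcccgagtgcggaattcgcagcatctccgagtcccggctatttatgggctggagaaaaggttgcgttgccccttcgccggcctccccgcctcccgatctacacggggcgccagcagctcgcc
Ppp1r3c, chr19:36736605-36736854 (minus strand): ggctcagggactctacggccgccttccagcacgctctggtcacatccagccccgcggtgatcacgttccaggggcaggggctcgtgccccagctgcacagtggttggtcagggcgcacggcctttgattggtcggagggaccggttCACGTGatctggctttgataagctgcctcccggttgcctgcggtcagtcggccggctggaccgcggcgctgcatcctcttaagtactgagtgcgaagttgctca
Ugdh, chr5:65435843-65436092 (minus strand): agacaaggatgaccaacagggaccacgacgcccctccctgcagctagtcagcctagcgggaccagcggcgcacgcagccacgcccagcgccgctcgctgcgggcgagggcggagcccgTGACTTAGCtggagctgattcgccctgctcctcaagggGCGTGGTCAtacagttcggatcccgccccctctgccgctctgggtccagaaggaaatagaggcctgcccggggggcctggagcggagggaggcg
The antioxidant response element core was in 0 of the 8 windows of glycogen genes and in 10.2% of 32851 windows of the same length over all genes. It was in the window of Ugdh, at TGACTTAGC from 132 to 124 bases before the start and, on the other strand, at GCGTGGTCA from 94 to 86 bases before it. The window of Slc35d1, a transporter of UDP-glucuronic acid described below, also held it, at TGACCCCGC from 101 to 93 bases before the start. Ugdh and Slc35d1 are the genes past a threshold in the list of other uses of UDP-glucose described below. Windows of the other genes of that list were not examined singly, so the motif was not compared within it. The E-box, the element read by clock proteins and by other helix-loop-helix factors, was in the window of Ppp1r3c from 104 to 99 bases before the start, and in 6.02% of all windows. The cAMP response element, a target of the glucagon pathway, was in 0 of the 8 windows and in 1.55% of all. The Gbe1 and Ugp2 windows held none of the 3 motifs, which says only that these letters are not in these bases.

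Gbe1 encodes the glycogen branching enzyme, the sole enzyme that makes the branch points of glycogen. Its ratio was 0.803, 0.895, 0.612 and 0.562 in control animals 70, 71, 80 and 82. It was 1.09, 1.45, 1.29 and 2.18 in txnrd1-/- animals 69, 72, 73 and 81. Every txnrd1-/- liver was above every control liver, and animal 81 was the highest. Expressed as group means, the ratio was 0.718 ± 0.157 (SD, n = 4) in control livers and 1.51 ± 0.473 (SD, n = 4) in txnrd1-/- livers. The log2 difference was 1.05 ± 0.23 (SE), a 2.06-fold difference with a 95% interval of 1.45 to 2.94 in limma. This was the largest difference among the 9 genes. The exact permutation test over the 8 animals gave p = 0.0286, the smallest that 4 against 4 animals can give. The limma p was 0.797 adjusted over all probe sets and 0.466 adjusted over all genes. Without animal 81 the log2 difference over genes was 0.85. Among animals numbered 69 to 73 the log2 difference was 0.59 (2 control and 3 txnrd1-/- livers), and among those numbered 80 to 82 it was 1.89 (2 and 1).

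Ugp2 encodes UDP-glucose pyrophosphorylase, which makes the glucose donor for glycogen and for every other use of UDP-glucose. Taken as the mean of its 5 probe sets, its ratio was 0.820, 0.934, 0.480 and 0.904 in control animals 70, 71, 80 and 82. It was 1.05, 1.39, 1.07 and 1.40 in txnrd1-/- animals 69, 72, 73 and 81. The groups did not overlap, although animal 71 and animal 69 lay close together and animal 80 lay far below the other control livers. The log2 difference was 0.68 ± 0.21 (SE), 1.60-fold with a 95% interval of 1.15 to 2.23 in limma. The exact permutation p was 0.0286, and the limma p adjusted over all genes was 1.00.

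The 5 probe sets of Ugp2 shared their lowest liver but not the whole order of the livers. In each of them animal 80 was the lowest of the 8 livers, at 0.437 to 0.556, and the highest was animal 72 or animal 81. Probe set 1426461_at, with the largest fold, stood at 0.787, 0.914, 0.437 and 0.733 in the control livers and at 1.11, 1.47, 1.08 and 1.43 in the txnrd1-/- livers, which is 1.82-fold. Probe set 1426460_a_at differed 1.72-fold. The others gave smaller folds, at 1.52 for 1434486_x_at, 1.49 for 1434485_a_at and 1.48 for 1451742_a_at, the last 2 just under the 1.5-fold minimum and the first just over it. Probe sets of 1 gene share its RNA and may share probes, so their number adds no replicates. Without animal 80 the log2 difference of Ugp2 was 0.46, a difference of under 1.5-fold, and the study's thresholds were no longer met. The groups then still did not overlap, since animal 80 was the lowest control. Within animals numbered 69 to 73 the log2 difference was 0.40, and within those numbered 80 to 82, which include animal 80, it was 1.09.

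**Figure D2:**
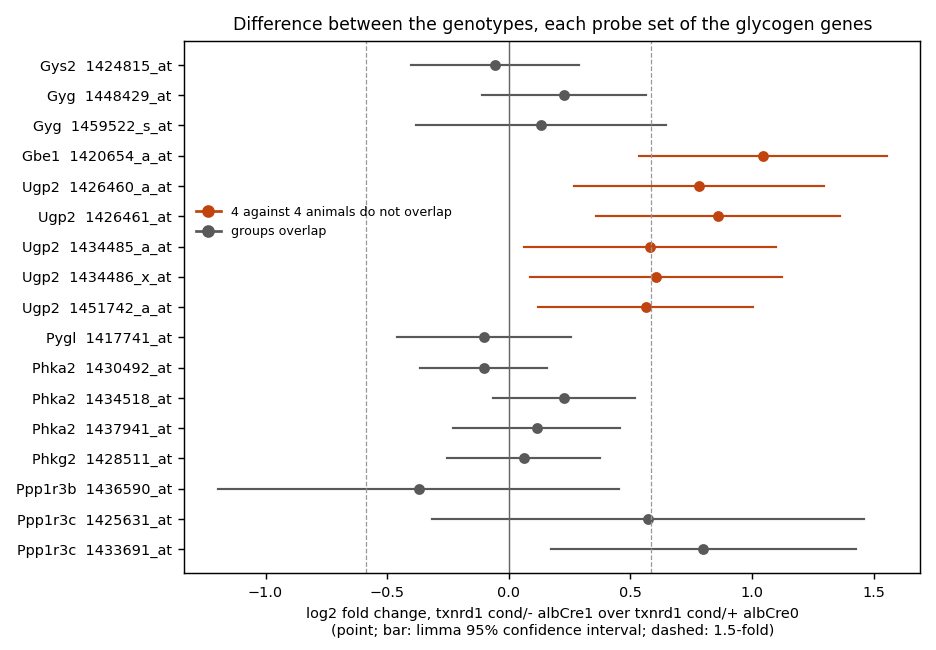
Log2 fold change of txnrd1 cond/- albCre1 over txnrd1 cond/+ albCre0 livers (horizontal axis) for each of 17 probe sets, with the limma 95% confidence interval as a bar and 1.5-fold as dashed lines. Orange marks probe sets whose 4 against 4 animals do not overlap: Gbe1 at 1.05 and the 5 of Ugp2 from 0.56 to 0.86.

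Gys2 encodes the liver form of glycogen synthase, which lengthens the chains and is a step that hormones control. Its ratio was 1.12, 0.956, 0.797 and 1.16 in control animals 70, 71, 80 and 82. It was 1.09, 0.887, 0.834 and 1.05 in txnrd1-/- animals 69, 72, 73 and 81. The groups overlapped over nearly their whole range. The ratio of txnrd1-/- to control livers was 0.960 with a 95% interval of 0.756 to 1.22 in limma, and a 1.5-fold difference in either direction lies outside that interval.

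Gyg encodes glycogenin, the protein that primes a new glycogen particle by attaching the first glucose units to itself. Probe set 1448429_at stood at 1.18, 0.887, 0.908 and 0.835 in the control livers and at 1.28, 0.919, 1.08 and 1.17 in the txnrd1-/- livers. Probe set 1459522_s_at stood at 1.18, 0.798, 0.986 and 0.764 in the control livers and at 1.21, 0.645, 1.01 and 1.30 in the txnrd1-/- livers. Both probe sets had animals 70 and 69, 1 of each genotype, among their 3 highest livers, and the groups overlapped in both. The fold was 1.17 (95% interval 0.926 to 1.48) for the first and 1.10 (0.768 to 1.57) for the second in limma. The suffix _s_at marks probes that can match transcripts of more than 1 gene, so the second is less specific.

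On the side of breakdown, Pygl encodes the liver glycogen phosphorylase, which removes glucose units as glucose 1-phosphate. Its ratio was 0.929, 1.14, 0.866 and 1.09 in control animals 70, 71, 80 and 82, and 0.866, 1.09, 0.739 and 1.08 in txnrd1-/- animals 69, 72, 73 and 81. Each genotype held 2 livers near 1.1 and 2 below 0.95. The fold was 0.931 with a 95% interval of 0.727 to 1.19 in limma.

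Phosphorylase kinase is a complex of alpha, beta, gamma and calmodulin subunits, and Phka2 and Phkg2 encode the alpha and gamma subunits used in liver. Taken as the mean of 3 probe sets, the Phka2 ratio was 1.05, 0.968, 0.874 and 1.02 in control animals and 1.07, 1.07, 0.982 and 1.00 in txnrd1-/- animals 69, 72, 73 and 81. Its 8 livers lay within 1.23-fold of each other, the narrowest range of the 9 genes. Its probe sets differed in direction, with folds of 0.931 for 1430492_at, 1.17 for 1434518_at and 1.08 for 1437941_at. Phkg2, the catalytic subunit, stood at 1.01, 0.812, 0.998 and 0.990 in control animals and at 0.993, 0.801, 1.05 and 1.14 in txnrd1-/- animals. For Phka2 and Phkg2 the folds were 1.06 (95% interval 0.909 to 1.23) and 1.04 (0.849 to 1.28) over genes in limma.

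The beta subunit, Phkb, is no member of the 9 but belongs to the same complex. It stood at 1.00, 0.790, 0.613 and 0.953 in control animals and at 1.19, 0.991, 1.16 and 1.53 in txnrd1-/- animals. The groups met at animals 70 and 72, which were nearly equal. The fold was 1.46 with a 95% interval of 1.10 to 1.94 in limma, and the adjusted p was 1.00. Without animal 80 the log2 difference went from 0.55 to 0.40, and without animals 80 and 81 it was 0.29. Of the 3 measured members of the list of other phosphorylase kinase subunits, 0 passed either threshold, with a median log2 difference of 0.19 beside 0.00 over all genes.

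Ppp1r3c encodes PTG (protein targeting to glycogen), and Ppp1r3b encodes the liver subunit GL; both bind protein phosphatase 1 and glycogen. Ppp1r3c probe set 1433691_at stood at 0.703, 0.469, 0.812 and 1.10 in control animals 70, 71, 80 and 82, and at 0.981, 1.49, 1.00 and 1.83 in txnrd1-/- animals 69, 72, 73 and 81. Probe set 1425631_at stood at 0.706, 0.446, 1.02 and 1.52 in the control livers and at 0.902, 0.984, 1.13 and 2.38 in the txnrd1-/- livers. In both, animal 71 was the lowest liver and animal 81 the highest, and control animal 82 reached above at least 2 of the txnrd1-/- livers. The first differed 1.74-fold (95% interval 1.13 to 2.69) and met the study's thresholds, whereas the second differed 1.49-fold (0.803 to 2.75) and did not. Over the gene the log2 difference was 0.69 ± 0.33 (SE), with an exact permutation p of 0.171. Leaving out control animal 71 or txnrd1-/- animal 81 brought it to 0.43 and 0.44. Within animals numbered 69 to 73 the log2 difference was 0.91 and within those numbered 80 to 82 it was 0.95. With that number range as a covariate the log2 difference was 0.92 and the gene met the study's thresholds, with a limma p of 0.00066 before adjustment in place of 0.064, whereas the p adjusted over all genes was 0.353. For Gbe1 and Ugp2 the same covariate gave larger limma p-values before adjustment. They were 0.00213 in place of 0.000948 for Gbe1 and 0.021 in place of 0.0104 for Ugp2.

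Ppp1r3b was read by 1 probe set and had a wide range among livers of 1 genotype. Its ratio was 1.02, 0.975, 2.55 and 0.756 in control animals 70, 71, 80 and 82, and 0.873, 1.06, 1.28 and 0.576 in txnrd1-/- animals 69, 72, 73 and 81. Control animal 80 was the highest and txnrd1-/- animal 81 the lowest, a range of 4.43-fold. The log2 difference was -0.37 ± 0.37 (SE), and without animal 80 it was 0.00. Ppp1r3b and Ppp1r3c thus placed animal 81 at opposite ends of the 8 livers.

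**Figure D3:**
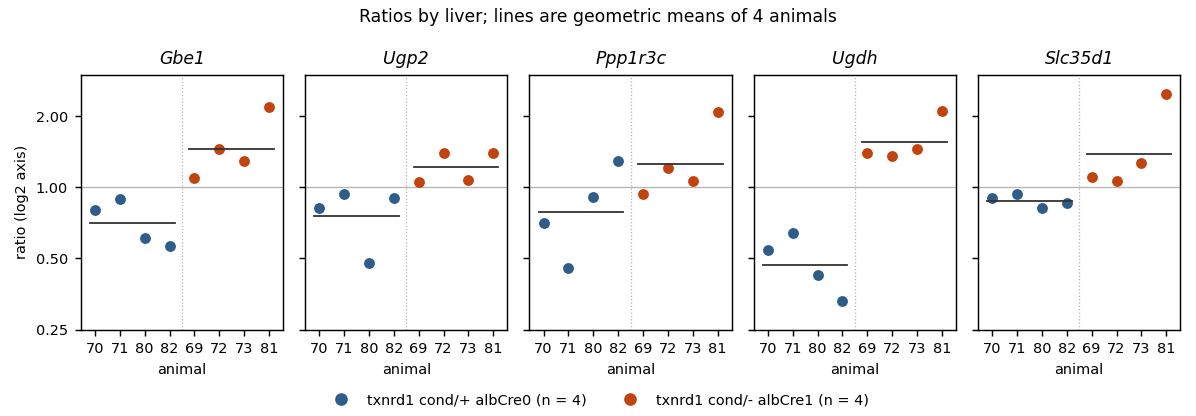
Ratio by liver (log2 axis; mean of the probe sets of a gene) of Gbe1, Ugp2 and Ppp1r3c beside Ugdh and Slc35d1, the enzyme that makes UDP-glucuronic acid from UDP-glucose and a transporter of UDP-glucuronic acid; blue, txnrd1 cond/+ albCre0; orange, txnrd1 cond/- albCre1; lines, geometric means of 4 animals. Groups are apart in 4 of the 5 genes and overlap in Ppp1r3c, and animal 81 is the highest liver in each panel.

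Because Ugp2 feeds several pathways, a list of genes for other uses of UDP-glucose was set beside it. The list also holds Slc35d1, which acts further on, on UDP-glucuronic acid. Of 7 measured genes of that list, 1 passed the adjusted threshold: Ugdh, the dehydrogenase that turns UDP-glucose into UDP-glucuronic acid. It stood at 0.541, 0.642, 0.425 and 0.331 in control animals 70, 71, 80 and 82 and at 1.40, 1.36, 1.45 and 2.11 in txnrd1-/- animals 69, 72, 73 and 81. Ugdh was 3.30-fold higher (95% interval 2.36 to 4.62), with a limma p adjusted over all genes of 0.0253. Its adjusted p ran from 0.000842 to 1.00 over 20 alternatives, of which 10 kept the call. The call was lost without animal 69, 70, 72, 73, 80 or 81, where the log2 difference was 1.58 to 1.79. It was also lost with linear ratios (adjusted limma p 0.0993), with the animal number range as a covariate (0.0757) and without both animals 80 and 81 (0.239). With each feature tested alone the call was lost as well, and there 0 of 18193 genes passed. Slc35d1, a transporter that moves UDP-glucuronic acid into the endoplasmic reticulum, met the study's thresholds. It stood at 0.905, 0.939, 0.818 and 0.854 in the control livers and at 1.11, 1.06, 1.27 and 2.47 in the txnrd1-/- livers, 1.58-fold. Its groups were apart, but its highest liver, animal 81, carried much of the difference, and without it the log2 difference was 0.38. Uggt1, which adds glucose from UDP-glucose to misfolded glycoproteins, had a fold of 0.919. The median log2 difference of the list was -0.01, and 2 of its 7 differences were above 0.

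The remaining lists of the pathway showed no gene past either threshold. Among 8 measured other enzymes of glycogen the median log2 difference was -0.03, with Pgm1 at 0.17, Pgm2 at -0.17 and Gys1 at 0.11; the phosphoglucomutases link glucose 6-phosphate to glucose 1-phosphate, and Gys1 is the synthase of muscle. Among 10 subunits of protein phosphatase 1 and other glycogen-targeting proteins it was 0.10, with the catalytic subunit Ppp1cb at 0.07. Among 18 genes of hormone and kinase control it was -0.01. In that list the glucagon receptor Gcgr stood at 0.07 and the synthase kinases Gsk3a and Gsk3b at 0.01 and 0.08. The list ran from -0.24 to 0.57, with Prkaa1 and Prkaa2, the catalytic subunits of the AMP-activated kinase, at 0.57 and 0.39, and the groups did not overlap for Akt2, a kinase of insulin signalling, at -0.13. These 3 genes were named after their values were seen. Among 8 genes of glucose entry, phosphorylation and release it was -0.01, with the transporter Slc2a2 at 0.06 and G6pc, the catalytic subunit of glucose 6-phosphatase, at -0.29. All these values are log2 differences of txnrd1-/- from control livers over genes in limma.

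Several genes of the pathway differed between livers in a way that crossed the genotypes. Ppp1r3g, another glycogen-targeting subunit of protein phosphatase 1, was at 32.3 in control animal 70 and at 29.7 in txnrd1-/- animal 69. It was at 4.20 in txnrd1-/- animal 72 and between 0.592 and 1.17 in the other 5 livers. The same pair of animals also had the highest ratios of Irs2, an adaptor of the insulin receptor, at 2.33 in animal 70 and 1.74 in animal 69. G6pc was at 1.80 and 1.44 and the clock gene Per1 at 1.88 and 1.47 in those animals, again the 2 highest of 8. The pattern was not limited to this pathway. The mean log2 ratio of 6 neutrophil marker genes was also highest in animals 70 and 69, at 0.72 and 0.39. It was -0.68 to 0.26 in the other livers, and that list was named after its values were seen. Ppp1r3g, Irs2 and Per1 were picked after their values were seen, and with 1 liver of each genotype this variation adds spread to both groups. Among the 9 genes, Gyg and Phka2 were highest in animal 69, whereas neither Gbe1, Ugp2 nor Ppp1r3c was.

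**Figure D4:**
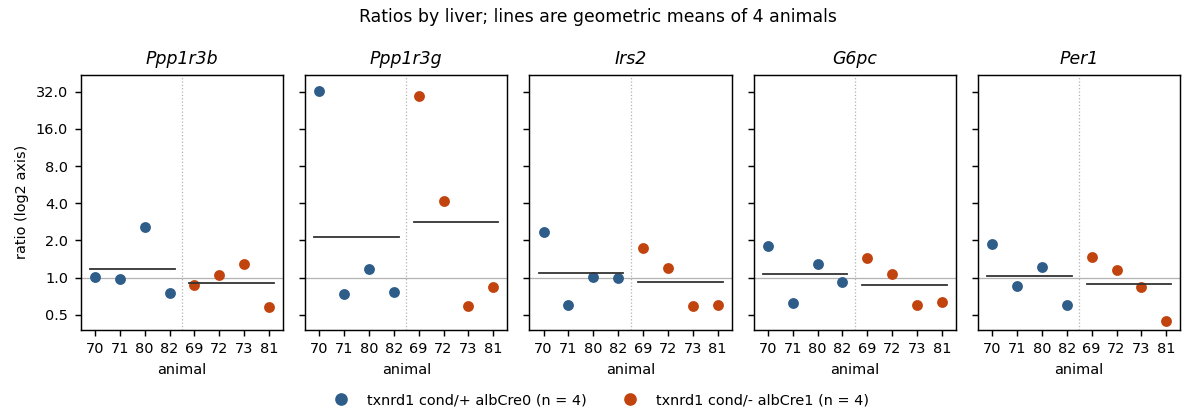
Ratio by liver (log2 axis; mean of the probe sets of a gene) of Ppp1r3b, Ppp1r3g, Irs2, G6pc and Per1; blue, txnrd1 cond/+ albCre0; orange, txnrd1 cond/- albCre1; lines, geometric means of 4 animals. Ppp1r3b is highest in animal 80 at 2.55, and the other 4 genes are highest in animals 70 and 69, which reach 32.3 and 29.7 for Ppp1r3g.

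Animals 80 and 81 were the livers most often at an end of the range among the glycogen genes. Animal 81 was the highest liver for 4 of the 9 genes, Gbe1, Ugp2, Phkg2 and Ppp1r3c, and animal 80 the lowest for 3, Gys2, Ugp2 and Phka2. These are ranks, and some margins were small. For Ugp2 animal 81 was at 1.40 and animal 72 at 1.39, and for Gys2 animal 80 was at 0.797 and animal 73 at 0.834. Animal 80 also had the lowest ratio of the clock output gene Dbp, at 0.299 against 0.709 to 1.16 in the other 7 livers, and the highest of Cry1, at 1.94; both are clock genes named after their values were seen. The part of clock genes in the glycogen values of animal 80 was not tested. With both animals left out, a setting chosen after seeing the data, Gbe1 met the study's thresholds with a log2 difference of 0.78, and Ugp2 did not, at 0.39. Of 15 measured clock genes 0 passed either threshold between the genotypes, with a median log2 difference of -0.01.

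Txnrd1 itself was read by 3 probe sets that ran in different directions, with folds of 2.16, 0.613 and 0.753. No source used here places them inside or outside the deletion, and they therefore do not check the genotype labels. Of the 9 marker lists for hepatocytes, other liver and blood cells, adipocytes and muscle, each had 0 genes past either threshold, and the list medians ran from -0.23 to 0.06. The mean log2 ratio of the 9 hepatocyte markers was -0.01 to 0.07 in control livers and -0.10 to 0.06 in txnrd1-/- livers, and that of the 6 muscle markers -0.17 to 0.21 and -0.06 to 0.27, so both overlapped between the genotypes. Livers differed more in other lists, most in the 6 neutrophil markers, at -0.66 to 0.72 in control and -0.68 to 0.39 in txnrd1-/- livers. Differences above 0 were found for 0 of 8 stellate, 0 of 3 erythroid, 1 of 7 endothelial, 4 of 8 Kupffer cell and 2 of 3 adipocyte markers. Ratios keep no signal, so the presence of the marker genes could not be checked. In whole liver, fewer cells of a type and less RNA per cell cannot be told apart.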

How the data were processed

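Liver RNA of 8 mice, 4 per genotype and 1 Affymetrix mouse expression array per animal, was the material. The authors deposited ratios on a linear scale, from arrays handled with GeneSpring (methods) and RMA (submitters' processing notes); the sources used here give neither the RMA version nor the steps that formed the ratios. Raw signals were not used here, so the minimum signal of the study could not be applied. Of 45101 probe sets, 64 controls were left out and 45037 tested; 5 empty values stayed empty. Names came from the annotation of the platform, and RefSeq supplied current symbols: 34945 carry 1 symbol, 932 several and 9160 none, and a gene is the mean log2 ratio of its probe sets with 1 symbol. Log2 ratios were compared with limma 3.58.1 in R 4.3.3 (lmFit and eBayes, 2-sided, no covariate), with Benjamini-Hochberg adjustment over all probe sets or all genes. A call needed an adjusted p of at most 0.05 and 1.5-fold. The labels name separate animals, so the spread is between animals; precision is limited by how many arrays there are. Before use, the fit was tested on simulated data.

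Members, lists and tests were chosen with earlier results of these data known. Named genes are every member, Txnrd1, list genes past either threshold and a set of pathway genes named whatever their values; Ppp1r3g, Irs2, Per1, Dbp, Cry1, Prkaa1, Prkaa2 and Akt2 were added after their values were seen. The alternatives were other scalings (median-centred arrays, quantile normalization), a pseudocount of 0.1, linear ratios, robust and weighted fits, each feature tested alone, an SD filter, the animal number range and the hybridization controls as covariates, the probe set of largest variance and leaving out each animal. Promoter sequences were read from RefSeq (GRCm38.p6). Python 3.11.15 with matplotlib 3.10.9 drew the figures.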

Additional observations from a re-analysis of the deposited data

Results flagged for a closer look

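Values of single livers that lay far from the other 3 of their group, by the ratio of the gap to the range on the log2 scale, were seen in 7 of 64 groups tested, and in 6 of 60 without Ppp1r3g and Irs2, which were picked after their values were seen. Chance gives about 1 in 20 groups, but probe sets of 1 gene share their RNA, so these groups are not independent and the counts are a description. Among the glycogen genes these were Ugp2 probe set 1426460_a_at at 0.480 in control animal 80, Phka2 probe set 1430492_at at 0.853 in txnrd1-/- animal 69 and Phkg2 at 0.812 in control animal 71. Among the other genes tested they were Gsk3a at 1.55 in control animal 82 and Ugdh at 2.11 in txnrd1-/- animal 81. Uggt1 at 1.17 in control animal 80 and Ppp1r3g at 32.3 in control animal 70 were the others. The named genes Txnrd1, Dbp, Cry1, Per1, Prkaa1, Prkaa2 and Akt2 were not tested in this way, so their single livers are not covered.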

How the results depend on the processing

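In every alternative 0 glycogen probe sets and 0 glycogen genes passed after adjustment in limma or when each was tested alone, where 3 to 9 of the probe sets and 2 to 3 of the genes had an unadjusted p of at most 0.05, against 1.37% to 4.95% of all probe sets and 1.8% to 5.37% of all genes. Gbe1 kept its direction and met the study's thresholds in 20 of 20 alternatives (log2 difference 0.78 to 1.18), Ugp2 in 17 of 20 (0.39 to 0.86) and Ppp1r3c in 5 of 20 (0.43 to 0.93). The count of probe sets past the study's thresholds, 5, was 3 with each feature tested alone, 3 to 8 without 1 animal (3 without animal 80 or 81, 8 without animal 82) and 1 without both animals 80 and 81. The count of genes, 2, was 1 with array weights, 1 to 3 without 1 animal (1 without animal 80) and 1 without animals 80 and 81. The median log2 difference of probe sets, 0.23, was 0.58 with the SD filter, which left 11 of 17, and 0.18 to 0.35 without 1 animal; that of genes, 0.08, was 0.68 with the filter, which left 5 of 9, and 0.06 to 0.16. Genes with log2 differences near 0 changed sign. Without 1 animal, Gys2 ran from -0.17 to 0.0154 (above 0 without animal 73 or 82), Pygl from -0.18 to 0.0084 (above 0 without animal 73), Phkg2 from -0.0132 to 0.16 (below 0 without animal 71 or 81) and Ppp1r3b from -0.58 to 0.0014 (above 0 without animal 80). Without animals 80 and 81, Ppp1r3b was at 0.22. Where an alternative leaves out animals or probe sets, fewer values enter; otherwise the cause was not tested. No paired analysis was made because the labels give no pairing of animals. Signal over background is unknown from ratios.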
